A study of Mus musculus with 47 samples.

Results

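This is a description of the voltage-gated calcium channels, voltage-gated sodium channels, HCN channels and intracellular calcium release channels of the mouse hippocampus, as they appeared in bulk RNA-seq of 47 mice. Members were the rows of the count table whose symbols match the Cacna1, Cacna2d, Cacnb, Cacng, Scn, Hcn, Ryr and Itpr series and whose reads summed to at least 470 over the 47 libraries. The table held 35486 genes. Of their symbols 50 matched, and 43 of these were members. The rule used total reads and no contrast between groups. Just inside the limit were Cacng6 with 498 reads and Cacna2d4 with 616. Just outside it was Hcn4 with 415 reads, followed by Cacna1s with 218, Cacna1f with 77, Scn10a with 11, Scn11a with 10, Cacng1 with 6 and Scn4a with 2.

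All mice were male C57BL/6J. The groups were Young Veh (n = 13, ages 3.75 to 5.26 months in the labels), Young PF4 (n = 12, 4.08 to 5.03 months), Old Veh (n = 12, 17.47 to 19.97 months) and Old PF4 (n = 10, 17.4 to 20.23 months). PF4 groups had received mouse platelet factor 4, a chemokine released by platelets, by daily intraperitoneal injection, and Veh groups had received its vehicle. The mice carried no transgene or deletion in the labels. RNA came from homogenized hippocampus, and in such bulk samples fewer cells of a type and less RNA per cell cannot be told apart. The titles give a group, a replicate number and a library number, and each library was taken as 1 mouse.

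Voltage-gated calcium channels are built around a pore-forming alpha1 subunit, which sets the current type, together with an intracellular beta subunit and an extracellular alpha2delta subunit that bring the pore to the membrane. Voltage-gated sodium channels have a pore-forming alpha subunit, which drives the action potential, and beta subunits that tune its gating and bind adhesion partners. HCN channels open on hyperpolarization and carry the inward current that damps excitation in the distal dendrites of hippocampal pyramidal neurons. Ryanodine and IP3 receptors sit in the endoplasmic reticulum and release stored calcium into the cytosol.

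Total counts per library ranged from 2242879 to 21112908, and 8 of the 47 libraries, 4 of them in Old Veh, held under 5000000. The members together took 0.347% to 0.425% of all reads. The neuron markers fixed for checking the tissue summed to 5854 to 7961 CPM (a gene's counts scaled to the size of its library, normalized by TMM), and all 7 of them passed the count filter. Choroid plexus markers summed to 12.0 to 4254 CPM, with group medians of 1940 CPM in Young Veh, 2377 in Young PF4, 47.04 in Old Veh and 65.8 in Old PF4. Microglia markers had medians of 269 CPM in Young Veh, 272 in Young PF4, 300 in Old Veh and 315 in Old PF4. Oligodendrocyte markers had medians of 5401, 5313, 5880 and 6285 CPM in the same order. Library numbers in the labels did not overlap between the old groups (1 to 23) and the young groups (24 to 48), nor between Old Veh (1 to 12) and Old PF4 (13 to 23), so age, and PF4 treatment in old mice, cannot be told apart from whatever these numbers mark.

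A pair of libraries, Young Veh replicate 4 and Old PF4 replicate 8, stood apart from the other 45 among the channel genes. They had the lowest length index, the mean log2 CPM of genes with long transcripts minus that of genes with short ones after centering each gene, at -0.35 and -0.23. Scn2b was 622 CPM in Young Veh replicate 4 and 640 CPM in Old PF4 replicate 8, against 230 to 475 CPM elsewhere. Hcn2 showed the reverse, at 23.4 and 20.6 CPM against 32.9 to 80.1 elsewhere. In Cacna1a, Cacna1b, Cacna1c, Cacna1d, Cacna1h, Cacnb1, Hcn2 and Ryr2 these libraries were the lowest pair of the 47, and in Scn2b they were the highest pair. Their totals were 19508854 and 12380047 counts, within the range of the others. Another library, Young PF4 replicate 8, had thalamus markers (Tcf7l2, Prkcd, Ramp3 and Tnnt1) that summed to 374 CPM against at most 118 CPM elsewhere, and it held the highest Cacna1g (36.8 CPM) and the highest Scn1a (157 CPM) of all libraries. Values without these libraries stand beside several results below.

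Levels per length, which allow genes to be compared with one another, were computed as counts per kilobase of the longest annotated transcript, scaled to the same sum in every library as TPM values are, and are given as mean ± SD over the 47 mice. Of the sodium channel beta subunits, Scn3b (192 ± 18.4) and Scn2b (190 ± 48.4) had levels that differed by less than their SD, though with the median transcript length in place of the longest they were 222 and 86.6, and Scn4b, a subunit linked to resurgent current, was at 4.87 ± 1.43. Calcium channel beta subunits summed to 327 ± 20.4, led by Cacnb3 at 168 ± 11.7, with Cacnb1 (72.4 ± 9.13), Cacnb4 (64.8 ± 6.58) and Cacnb2 (21.7 ± 2.15) below it. Exons of Cacnb4 overlap those of A430018G15Rik, with 15907 reads beside 87371.

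Sodium channel alpha subunits summed to 254 ± 16.7. Scn2a, the main channel of the axons of excitatory neurons, led at 102 ± 6.92, and Scn8a, found at the axon initial segment and nodes of Ranvier, was at 81.0 ± 6.75. Scn1a, the main channel of fast-spiking interneurons, was at 43.1 ± 4.79, and Scn3a, best known from the embryonic brain, was at 23.6 ± 2.22. Scn7a (1.76 ± 0.549), the sodium-sensing Nax channel, and Scn9a (1.496 ± 0.355), best known from pain-sensing neurons, were low. Exons of Scn9a overlap those of Gm13629, which had 1474 reads beside 2409 for Scn9a, and the libraries carry no strand. Alpha2delta subunits summed to 186 ± 11.5 and consisted almost wholly of Cacna2d3 (101 ± 7.74) and Cacna2d1 (78.2 ± 7.03, the binding site of gabapentin), with Cacna2d2 at 5.48 ± 1.51 and Cacna2d4 at 0.653 ± 0.226.

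The Cacng genes summed to 177 ± 13.0. Most of them encode auxiliary subunits of AMPA-type glutamate receptors rather than of calcium channels: Cacng3 was at 82.2 ± 9.86, Cacng2 (stargazin) at 29.8 ± 3.02, Cacng8 at 19.04 ± 2.76, Cacng5 at 18.1 ± 5.03, Cacng7 at 15.2 ± 2.26 and Cacng4 at 11.0 ± 1.68. Cacng6, a relative of the skeletal muscle calcium channel subunit, was at 1.49 ± 0.653. Of the HCN channels, Hcn2 was at 52.6 ± 12.0 and Hcn3 at 8.60 ± 1.84. Of the IP3 receptors Itpr1 took 88.9% of the family level (51.4 ± 4.32), and of the ryanodine receptors Ryr2 took 66.5% (22.7 ± 3.78) ahead of Ryr3 (9.65 ± 0.968) and Ryr1 (1.83 ± 0.346).

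Among the calcium channel alpha1 subunits, the P/Q, N and R types, which trigger transmitter release at presynaptic terminals, summed to 75.4 ± 6.71, with Cacna1e at 32.6 ± 2.75, Cacna1a at 24.7 ± 3.78 and Cacna1b at 18.1 ± 1.90. The T types, which open at low voltage and support burst firing, summed to 32.4 ± 3.87, of which Cacna1h made up 65.7%. The L types, which couple dendritic calcium entry to transcription, summed to 20.3 ± 2.34 and were shared between Cacna1d (10.5 ± 1.25) and Cacna1c (9.85 ± 1.49), whose levels differed by less than their SD. With the median transcript length in place of the longest, the leading member changed in 3 of the 11 families: Cacna1c led the L types, Cacna1a the presynaptic types and Scn8a the sodium channel alpha subunits. Of 40 members compared, the median length raised the level of 13 by over 1.5 times and lowered that of 14 by as much, so the levels depend on the length chosen. Scn8a went from 81.0 to 395, Itpr1 from 51.4 to 228, Ryr2 from 22.7 to 111 and Cacna1h from 21.2 to 57.99, while Cacnb3 was lowered from 168 to 78.04 and Hcn2 from 52.6 to 22.5.

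**Figure D1:**
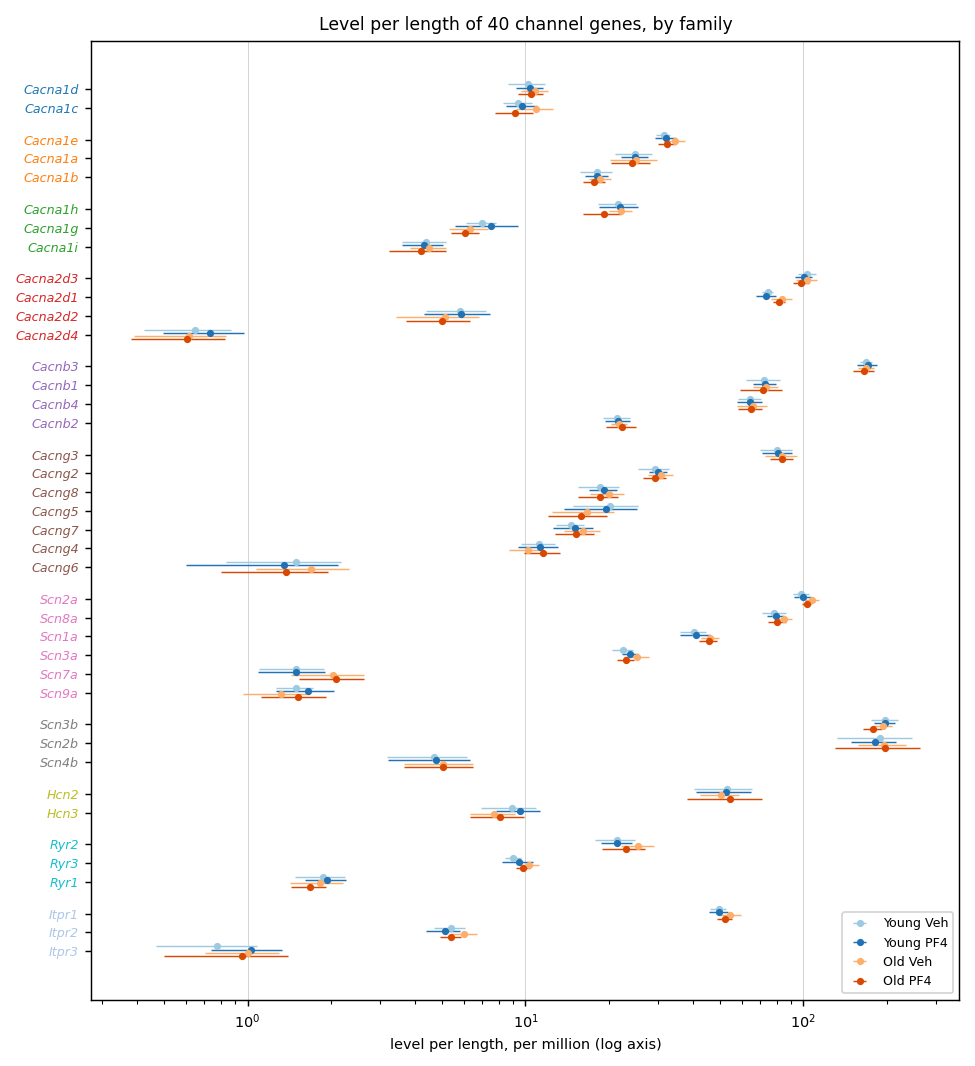
Level per length (counts per kilobase of the longest transcript, scaled like TPM, log axis) of 40 members in the 4 groups, as mean (points) and SD (bars) over 10 to 13 mice, ordered by family. Of the members plotted Scn3b is the highest at a mean of 192 over all mice and Cacna2d4 the lowest at 0.653, and within a member the 4 groups lie close together beside the distance between members.

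Spread between mice also differed among members. The coefficient of variation within groups, averaged over the 4 groups, was lowest for Scn2a (5.17%), Cacna2d1 (6.38%) and Cacnb3 (6.82%). It was 46.1% for Cacng6, at 0 to 35 reads per library. For Scn2b (27.4%) and Hcn2 (23.2%) it included the pair of libraries described above.

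The first comparison asked how the channels differed with age in vehicle-treated mice. A set of 5 members passed the test, each higher in Old Veh than in Young Veh: the alpha2delta subunit Cacna2d1, the sodium channel alpha subunits Scn1a, Scn3a and Scn2a, and the ryanodine receptor Ryr3. The rises were small, between 0.12 and 0.18 on the log2 scale, and no member was called lower. All 43 members had passed the count filter. edgeR called 2.16% of the 17778 genes tested as higher in Old Veh and 0.607% as lower, against 11.6% of the members as higher and 0 of 43 as lower. At an unadjusted p below 0.05 there were 13 members, 12 of them higher and 1 lower, beside 15.2% of all genes tested. DESeq2 also called 5 members, beside 627 genes. It was given all 35486 genes of the table, of which 27514 had any read. Genes without a read could not be called, so its share of genes tested is not given. Over all members 30 were higher and 13 lower, with a median log2 fold change of 0.026 against -0.013 over all genes tested. Of all genes tested 45.3% were higher.

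Cacna2d1 carries the smallest adjusted p of the members. It lies on chr5:15934691-16374511 (GRCm38, plus strand), and its longest annotated transcript has 7436 bases. The lowest, median and highest mouse of each group, in that order, were 179, 188 and 205 in Young Veh, 165, 187 and 213 in Young PF4, 184, 210.1 and 249 in Old Veh, and 192, 207 and 227 in Old PF4, all in CPM. Of the 12 Old Veh mice 9 exceeded the whole Young Veh range, and the ranges still overlapped at their ends. The log2 fold change was 0.16 (SE 0.039, edgeR adjusted p = 0.0148).

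Of the 5 genes, Scn3a (chr2:65457118-65567627, minus strand), Scn2a (chr2:65620771-65767447, plus strand) and Scn1a (chr2:66270778-66440840, minus strand) lie in 1 cluster of sodium channel genes on chromosome 2. Scn9a (chr2:66480080-66634962) and Scn7a (chr2:66673425-66784914) lie in the same cluster, both on the minus strand. Scn1a had lowest, median and highest values of 102, 116 and 135 in Young Veh, 102, 116 and 157 in Young PF4, 115, 134 and 140.2 in Old Veh, and 116, 133 and 145 in Old PF4, in CPM. In Old Veh 5 of 12 mice exceeded the Young Veh range and none was below it, with a log2 fold change of 0.18 (SE 0.048, edgeR adjusted p = 0.0214). The 3 libraries with the highest thalamus markers, Young PF4 replicate 8, Old PF4 replicate 11 and Old Veh replicate 4, were also the 3 highest for Scn1a (157, 145 and 140 CPM). Scn1a was still called without Old Veh replicate 4.

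Scn3a had lowest, median and highest values of 65.3, 72.7 and 81.9 in Young Veh, 66.7, 78.4 and 82.3 in Young PF4, 64.03, 82.2 and 92.8 in Old Veh, and 67.9, 77.8 and 81.8 in Old PF4, again in CPM. Of the 12 Old Veh mice 6 were above the Young Veh range and 1, at 64.0 CPM, was below it. Its log2 fold change was 0.16 (SE 0.045, edgeR adjusted p = 0.0335). Scn2a was the steadiest member between mice, at 272, 298 and 324 in Young Veh, 268, 307 and 334 in Young PF4, 305, 325 and 349 in Old Veh, and 293, 315 and 337 in Old PF4. In Old Veh 6 of 12 mice exceeded the Young Veh range and none was below it, and the log2 fold change was 0.12 (SE 0.034, edgeR adjusted p = 0.0407).

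Ryr3, the ryanodine receptor often called the brain type, lies on chr2:112631355-113217096 (minus strand), outside the sodium channel cluster. Its CPM values ran 43.7, 47.98 and 52.4 in Young Veh, 41.1, 48.9 and 59.2 in Young PF4, 49.2, 52.7 and 66.3 in Old Veh, and 46.5, 51.97 and 58.6 in Old PF4. In Old Veh 7 of 12 mice were above the Young Veh range and none was below it, for a log2 fold change of 0.18 (SE 0.052, edgeR adjusted p = 0.0443). Exons of Ryr3 overlap those of Aven, which had 7612 reads beside 24279 for Ryr3, and the libraries carry no strand, so reads in the shared stretch cannot be assigned to either gene.

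**Figure D2:**
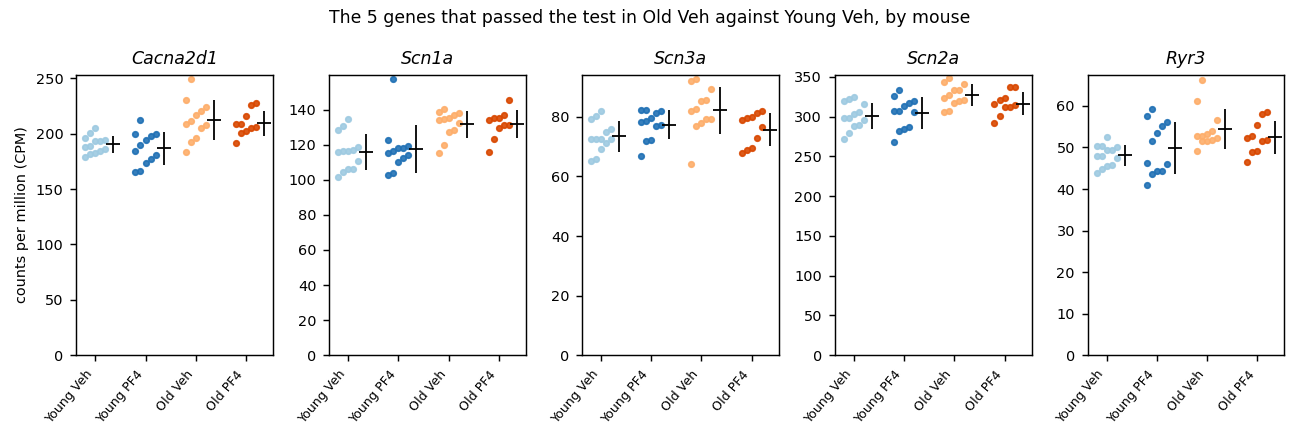
CPM of the 5 members that passed the test in Old Veh against Young Veh, 1 point per mouse in each of the 4 groups, with the group mean and SD in black beside the points and the axis starting at 0. Old Veh sits higher than Young Veh in each panel with overlapping ranges, by 0.12 to 0.18 on the log2 scale.

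The promoters of the called genes are shown because these genes passed the test in the same direction. RefSeq windows of 300 bases (250 before to 50 after the start, GRCm38.p6) were found for Cacna2d1, Scn1a and Scn2a among the called genes, and for 30 of the 43 members in all, in 41 windows. Capitals mark matches, on either strand, to the TATA box TATAAA, the GC box GGGCGG, the E box CACGTG or the CRE core TGACG.
Cacna2d1, chr5:15934441-15934740, plus strand: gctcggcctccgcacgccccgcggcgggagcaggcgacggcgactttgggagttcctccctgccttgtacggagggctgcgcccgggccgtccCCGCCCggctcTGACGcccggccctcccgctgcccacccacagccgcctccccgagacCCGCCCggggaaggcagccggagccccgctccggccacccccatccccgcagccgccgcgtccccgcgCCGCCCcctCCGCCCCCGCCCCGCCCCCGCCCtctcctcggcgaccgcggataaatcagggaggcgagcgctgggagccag
Scn1a, chr2:66440788-66441087, minus strand: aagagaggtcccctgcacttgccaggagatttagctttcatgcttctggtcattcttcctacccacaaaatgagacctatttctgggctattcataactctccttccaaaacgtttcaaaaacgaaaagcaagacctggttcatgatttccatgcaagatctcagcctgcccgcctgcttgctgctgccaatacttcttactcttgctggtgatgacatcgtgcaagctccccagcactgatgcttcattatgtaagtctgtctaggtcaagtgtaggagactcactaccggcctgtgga
Scn2a, chr2:65668436-65668735, plus strand: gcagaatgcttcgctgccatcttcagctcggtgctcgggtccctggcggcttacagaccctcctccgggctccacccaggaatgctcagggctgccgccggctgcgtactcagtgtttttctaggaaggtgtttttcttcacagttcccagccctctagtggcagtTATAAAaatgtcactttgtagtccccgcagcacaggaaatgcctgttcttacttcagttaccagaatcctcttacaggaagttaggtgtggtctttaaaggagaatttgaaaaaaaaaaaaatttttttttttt
The Cacna2d1 window had 80.0% G and C, 42 CpG dinucleotides and 7 GC boxes, of which 1 pair overlaps by 1 base, with 1 CRE core. The Scn1a window had 47.3% G and C, 5 CpG and none of the 4 motifs. For Scn2a another annotated start, at the upstream end of the gene (window chr2:65620519-65620818), had 33% G and C and no motif. The Scn2a window printed belongs to a start inside the gene and had 47.7% G and C and 1 TATA box. Over all 32851 windows a GC box was present in 35.7%, a CRE core in 20.8%, a TATA box in 13.6% and an E box in 7.15%. The 41 windows of members held them in 19, 5, 2 and 1 windows. A match is a description of letters only.

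Other members had an unadjusted p below 0.05 in Old Veh against Young Veh without passing the test. Ryr2, the main ryanodine receptor of heart and brain, was at 72.4, 124 and 149 in Young Veh, 93.96, 127 and 148 in Young PF4, 117, 149 and 202 in Old Veh, and 82.9, 136 and 155 in Old PF4 in CPM, with a log2 fold change of 0.25 (SE 0.088, edgeR adjusted p = 0.129). Its lowest Young Veh value was that of replicate 4, and without Young Veh replicate 4 and Old PF4 replicate 8 the log2 fold change was 0.19 with an edgeR adjusted p of 0.105. Cacna1e, the R-type pore, was at 148, 161 and 176 in Young Veh, 144, 162 and 191 in Young PF4, 146, 177 and 194 in Old Veh, and 149, 167 and 193 in Old PF4, with a log2 fold change of 0.12 (SE 0.043, edgeR adjusted p = 0.118). Itpr1, the IP3 receptor of most neurons, was at 152, 169.8 and 191 in Young Veh, 139.7, 169.9 and 193 in Young PF4, 151, 182 and 209 in Old Veh, and 159.5, 178 and 195 in Old PF4, with a log2 fold change of 0.12 (SE 0.045, edgeR adjusted p = 0.133). The Old Veh medians of these 3 genes were above the Young Veh medians, with wide overlap.

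Scn8a had a log2 fold change of 0.11 (SE 0.044, edgeR adjusted p = 0.21), Cacna1c had 0.20 (SE 0.077, edgeR adjusted p = 0.182) and Scn7a had 0.40 (SE 0.15, edgeR adjusted p = 0.141). Scn7a was the largest of these differences and among the least covered, at 2.44, 3.38 and 5.69 in Young Veh, 2.52, 3.51 and 5.87 in Young PF4, 2.72, 4.75 and 7.72 in Old Veh, and 2.94, 5.71 and 7.48 in Old PF4 in CPM. The 1 lower member at an unadjusted p below 0.05 was Cacng5, an AMPA receptor auxiliary subunit, with a log2 fold change of -0.29 (SE 0.14, edgeR adjusted p = 0.303).

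By family, the sodium channel alpha subunits had 3 of 7 members called and a median log2 fold change of 0.12. The ryanodine receptors had 1 of 3 called and a median of 0.18, and the alpha2delta subunits 1 of 4 with a median of -0.09, since Cacna2d1 was the only one of them on the higher side. All 3 IP3 receptors were on the higher side with a median of 0.14 and none called. The L types (2 of 2 higher, median 0.15) and the P/Q, N and R types (3 of 3 higher, median 0.03) had none called. The beta, gamma and T type families had medians of 0.01, 0.04 and 0.02 and no call.

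The other members that lead their families by level per length had log2 fold changes between -0.07 and 0.10 with age. Cacnb3 was at 148, 156 and 167 in Young Veh, 129, 158 and 176 in Young PF4, 142, 158 and 170.2 in Old Veh, and 139, 154 and 179 in Old PF4 in CPM, with a log2 fold change of -0.01 (SE 0.041, edgeR adjusted p = 0.952). For Cacnb3 the 95% interval of the difference ran from -0.09 to 0.07. Cacna2d3 was at 117, 131 and 143 in Young Veh, 109.9, 127 and 139.6 in Young PF4, 111, 133 and 141 in Old Veh, and 108, 128 and 132 in Old PF4, with -0.02 (SE 0.042, edgeR adjusted p = 0.915) and an interval from -0.10 to 0.07.

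Cacng3 was at 63.2, 74.2 and 95.6 in Young Veh, 60.6, 75.4 and 93.2 in Young PF4, 60.6, 80.3 and 95.3 in Old Veh, and 71.4, 79.8 and 91.9 in Old PF4 in CPM, with a log2 fold change of 0.04 (SE 0.063, edgeR adjusted p = 0.804). The T-type pore Cacna1h had 0.02 (SE 0.08, edgeR adjusted p = 0.95), and -0.03 without Young Veh replicate 4 and Old PF4 replicate 8. Cacna1d was at 23.9, 33.8 and 40.3 in Young Veh, 29.4, 33.99 and 40.7 in Young PF4, 30.4, 35.2 and 44.8 in Old Veh, and 28.4, 35.4 and 38.03 in Old PF4, with 0.10 (SE 0.064, edgeR adjusted p = 0.491). Its exons overlap Chdh, which had 3435 reads in the unstranded libraries. Hcn2 was at 23.4, 62.2 and 70.3 in Young Veh, 32.9, 56.9 and 76.2 in Young PF4, 34.1, 55.6 and 72.7 in Old Veh, and 20.6, 66.3 and 80.1 in Old PF4, with -0.07 (SE 0.15, edgeR adjusted p = 0.892), and its interval from -0.35 to 0.22 was wider than that of Cacnb3. Without the same pair of libraries Hcn2 had -0.14 and Cacna1d 0.06, with edgeR adjusted p of 0.519 and 0.5796. The interval of the sparsely read Cacng6 ran from -0.47 to 0.51, so changes of the size called in this comparison were not detectable there.

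Channel genes have long transcripts, and transcript length moved with the age comparison over all genes. The longest transcript had a median of 7926 bases for the members and 3150 for all genes tested. Among genes at or above 4594 bases, the upper quartile, 5.72% were called higher in Old Veh, against 0.815% in the lower quartile. In that upper quartile lay 30 members, of which 24 were higher with a median log2 fold change of 0.10, and they included the 5 called. The other 13 members had 6 higher, a median of -0.01 and no call. The length index was 0.039 ± 0.072 (SD) in Old Veh and -0.017 ± 0.119 in Young Veh, where replicate 4 was at -0.35. The medians were 0.042 in Old Veh and 0.0089 in Young Veh. With the length index as a covariate edgeR called 5.07% of all genes, in either direction, and the same 5 members, at log2 fold changes of 0.11 to 0.17. Of the 43 members 23 were then higher and 20 lower, in place of 30 and 13, with a median of 0.017.

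**Figure D3:**
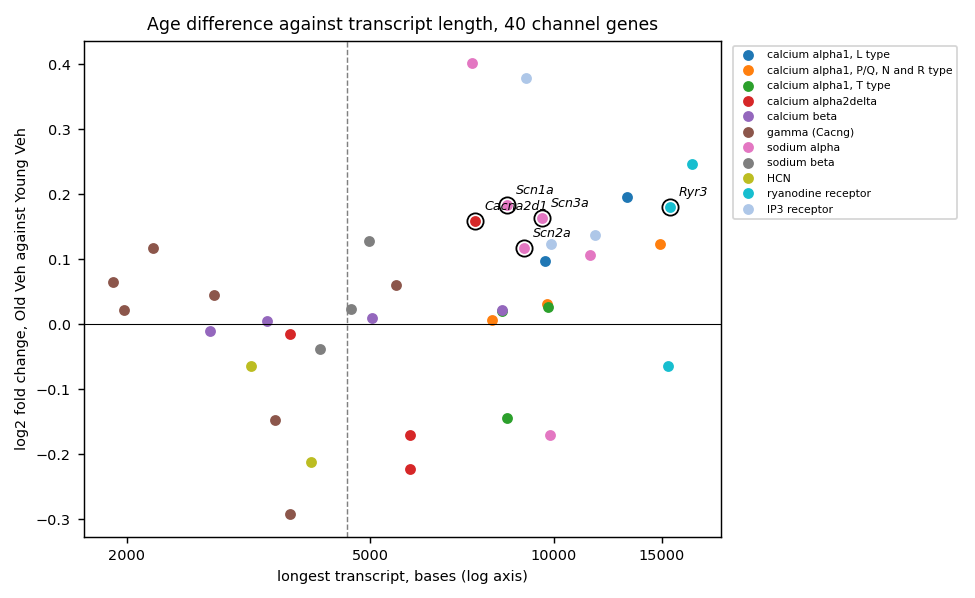
Log2 fold change of Old Veh against Young Veh for 40 members, against the length of the longest transcript in bases (log axis), colored by family, with the 5 called members circled. The dashed line is the upper quartile of all genes tested (4594 bases), and the called members all lie to its right.

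The choroid plexus score (mean log2 CPM of its 10 markers) also moved with age, with medians of 5.07 in Young Veh and 0.909 in Old Veh. With this score as a covariate edgeR called 2.02% of all genes, in either direction, and none of the 5, with log2 fold changes of 0.09 to 0.17 and edgeR adjusted p from 0.0571 to 0.1703. Without the 8 libraries under 5000000 counts edgeR called 0.975% of all genes and 2 members, Cacna2d1 and Scn3a, and the 5 log2 fold changes were 0.11 to 0.19. Without Young Veh replicate 4 and Old PF4 replicate 8 edgeR called 4.55% of all genes, and the 5 members and Itpr1 were called. Without a count filter edgeR called 1.45% of all genes, and Scn3a, Scn2a and Ryr3 were not called (edgeR adjusted p = 0.0564, 0.0882 and 0.0700). With a replicate block edgeR called 2.55% of all genes, and Scn2a and Ryr3 were not called (edgeR adjusted p = 0.0655 and 0.0667). Leaving out 1 of the 25 mice at a time gave 2 to 7 called members, beside 356 to 593 of all genes. Cacna2d1 and Scn1a were called in all 25 of these fits, Scn3a in 20, Ryr3 in 15 and Scn2a in 14. The count was 2 without Old Veh replicate 3, and 3 without Old Veh replicate 6, 7 or 12 or Young Veh replicate 1, 3, 4, 5 or 10. With the library number as a covariate edgeR called 0 of all 17778 genes and so none of the 5, at log2 fold changes of 0.18 to 0.42 and edgeR adjusted p from 0.179 to 0.732.

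The second comparison asked the same question in PF4-treated mice, which are other animals. edgeR called 0.332% of all genes and 0 of 43 members in Old PF4 against Young PF4, with 7 members and 8.27% of all genes at an unadjusted p below 0.05. DESeq2, given the whole table of 35486 genes, called 90 genes and 1 member, Cacna2d1. Here 21 members were higher and 22 lower, with a median log2 fold change of -0.01 against 0.00 over all genes, of which 51.7% were higher. The sign was shared between the 2 age comparisons by 30 of the 43 members (69.8%), against 64.3% of all genes tested.

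For Cacna2d1 and Scn1a the age effects of the 2 treatments differed by 0.00 and -0.01, with 95% intervals from -0.11 to 0.12 and from -0.15 to 0.12. For Cacna2d1 the log2 fold change was 0.16 (SE 0.042, edgeR adjusted p = 0.0707), and 3 of 10 Old PF4 mice were above every Young PF4 mouse. For Scn1a it was 0.17 (SE 0.051, edgeR adjusted p = 0.167). The highest Scn1a value of Young PF4, 157 CPM, was that of replicate 8 with its high thalamus markers, and without it the log2 fold change was 0.20 with an edgeR adjusted p of 0.0171. Scn7a had 0.55 (SE 0.16, edgeR adjusted p = 0.134), against 0.40 in vehicle mice.

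The other genes called in vehicle mice had smaller values here, and none of the differences between the treatments passed the test. Scn2a had a log2 fold change of 0.06 (SE 0.036, edgeR adjusted p = 0.724) and Ryr3 of 0.07 (SE 0.056, edgeR adjusted p = 0.792). Scn3a had -0.03 (SE 0.048, edgeR adjusted p = 0.931). A further 3 members were on the lower side at an unadjusted p below 0.05. The T-type pore Cacna1g had -0.27 (SE 0.09, edgeR adjusted p = 0.248) and the T-type pore Cacna1h -0.18 (SE 0.086, edgeR adjusted p = 0.562). The sodium channel beta subunit Scn3b had -0.12 (SE 0.052, edgeR adjusted p = 0.475). Without Young PF4 replicate 8 the Cacna1g difference was -0.21. In this comparison 1 member was called without Young PF4 replicate 8 (Scn1a), beside 67 of all genes. Cacna2d1 was called without Young PF4 replicate 1, beside 91 of all genes, and without replicate 11, beside 36.

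**Figure D4:**
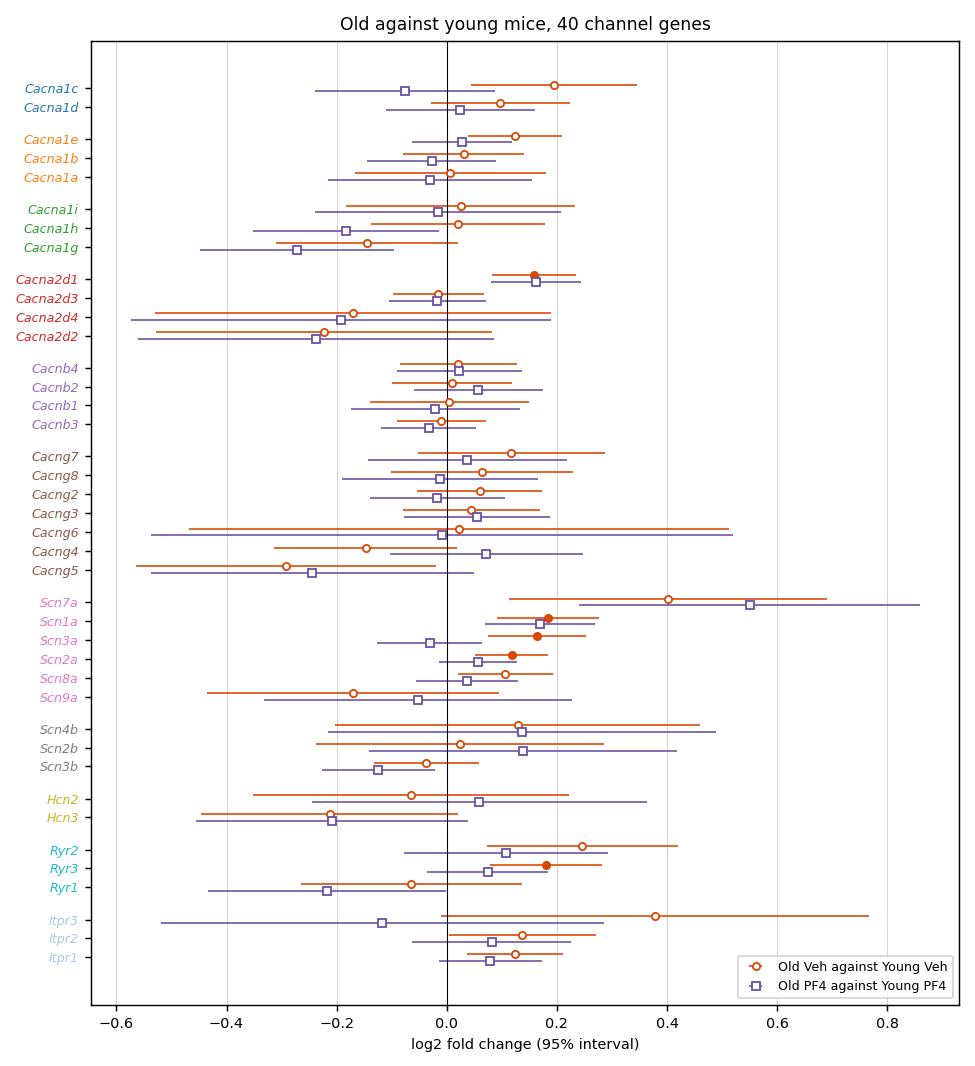
Log2 fold change of old against young mice with 95% intervals for 40 members, grouped by family, in vehicle mice (circles) and PF4 mice (squares). Filled symbols passed the edgeR test: Cacna2d1, Scn1a, Scn3a, Scn2a and Ryr3 in vehicle mice, and no member in PF4 mice.

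Averaging both treatments, a contrast added after the data had been seen, compares 22 old with 25 young mice. It called 3.31% of all genes as higher in old mice and 1.41% as lower. Of the members, Cacna2d1 (0.16, edgeR adjusted p = 0.0002), Scn1a (0.18, adjusted p = 0.000876), Scn7a (0.48, adjusted p = 0.00426), Scn2a (0.09, adjusted p = 0.0260) and Ryr3 (0.13, adjusted p = 0.0395) were higher on the log2 scale. Cacna1g was lower at -0.21 (edgeR adjusted p = 0.0353). Thalamus markers had medians of 75.5 CPM in Young Veh, 70.7 in Young PF4, 57.6 in Old Veh and 63.9 in Old PF4. A link between them and Cacna1g was not tested. Without Young PF4 replicate 8 Cacna1g was at -0.17 (edgeR adjusted p = 0.0428), and Ryr3 was not called at 0.12 (edgeR adjusted p = 0.0527). Without Young Veh replicate 4 and Old PF4 replicate 8 edgeR called 6.47% of all genes, in either direction, and Ryr2 and Itpr1 were called as well, at 0.18 and 0.11 (edgeR adjusted p = 0.0233 and 0.0305). In the averaged contrast with all libraries Scn3a was at 0.07 with an edgeR adjusted p of 0.265 and was not called.

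The third comparison, Old PF4 against Old Veh, addressed whether treatment altered the channels in old mice. edgeR called 0.0337% of all genes (6 of 17778) and 0 of the 43 members. DESeq2, given the whole table of 35486 genes, called 24 genes and 0 members. At an unadjusted p below 0.05 there were 4 members, 1 higher and 3 lower, beside 6.2% of all genes tested. Over all members 12 were higher and 31 lower, with a median log2 fold change of -0.04 against 0.01 over all genes tested. Of all genes tested 54% were higher. The length index moved with this comparison, from 0.039 ± 0.072 (SD) in Old Veh to -0.025 ± 0.079 in Old PF4, where replicate 8 was at -0.23. The medians were 0.042 in Old Veh and 0.0074 in Old PF4. With the length index as a covariate 20 members were higher and 23 lower, the median was -0.01, and edgeR called 0 of all genes.

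Cacna1c had the smallest p, with CPM values of 34.1, 42.3 and 50.5 in Young Veh, 34.9, 42.7 and 53.9 in Young PF4, 38.5, 48.6 and 64.9 in Old Veh, and 29.1, 43.4 and 47.4 in Old PF4. Of the 10 Old PF4 mice 3 were below every Old Veh mouse, and the log2 fold change was -0.24 (SE 0.083, edgeR adjusted p = 0.53). Scn3a came next, at -0.12 (SE 0.049, edgeR adjusted p = 0.702), with no Old PF4 mouse below the Old Veh range. Cacng4 was on the higher side, at 10.2, 13.9 and 16.2 in Young Veh, 10.1, 13.00 and 17.6 in Young PF4, 7.92, 12.4 and 14.8 in Old Veh, and 11.1, 14.01 and 17.2 in Old PF4 in CPM and a log2 fold change of 0.20 (SE 0.091, edgeR adjusted p = 0.749).

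Cacna1h was at 38.8, 62.2 and 76.7 in Young Veh, 47.95, 62.3 and 75.3 in Young PF4, 52.1, 61.6 and 72.9 in Old Veh, and 38.8, 55.5 and 65.3 in Old PF4 in CPM, and 4 of 10 Old PF4 mice were below every Old Veh mouse, with a log2 fold change of -0.19 (SE 0.087, edgeR adjusted p = 0.783). The lowest Old PF4 values of Cacna1c and Cacna1h were those of replicate 8, a library described above as standing apart. Without it their log2 fold changes were -0.19 and -0.14, with edgeR adjusted p of 0.668 and 0.861. Scn3b was at 229, 274 and 339 in Young Veh, 237, 277 and 309 in Young PF4, 248, 268 and 311 in Old Veh, and 215, 259 and 285 in Old PF4, with -0.10 (SE 0.052, edgeR adjusted p = 0.842), and again 4 Old PF4 mice were below the Old Veh range. Of the genes called with age, Cacna2d1 had a PF4 difference of -0.02 (SE 0.042, edgeR adjusted p = 1), Scn1a of 0.00 (SE 0.051, edgeR adjusted p = 1), Scn2a of -0.05 (SE 0.036, edgeR adjusted p = 0.95) and Ryr3 of -0.05 (SE 0.056, edgeR adjusted p = 0.98). The intervals of these 4 genes ran from -0.10 to 0.06, -0.10 to 0.10, -0.12 to 0.02 and -0.16 to 0.06. Each shares the Old Veh mice with the age comparison, so the values stand side by side and are not independent.

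In young mice edgeR called 0% of all genes, which is 0 of 17778, with 213 genes at an unadjusted p below 0.05, and 0 of the 43 members, and DESeq2 also called 0 genes. Over all members 26 were higher and 17 lower, beside 45.7% of all genes tested that were higher. Itpr3, an IP3 receptor with few reads in this tissue, was the 1 member at an unadjusted p below 0.05, at 0.784, 2.197 and 4.19 in Young Veh, 2.08, 3.07 and 5.19 in Young PF4, 1.595, 2.85 and 5.45 in Old Veh, and 1.102, 2.69 and 5.55 in Old PF4 in CPM and a log2 fold change of 0.47 (SE 0.19, edgeR adjusted p = 1). The next members by p were Scn3a at 0.08 (SE 0.045, edgeR adjusted p = 1) and Cacna2d3 at -0.05 (SE 0.042, edgeR adjusted p = 1). Itpr2, the IP3 receptor best known from glia, was at 17.4, 21.9 and 26.6 in Young Veh, 14.5, 20.8 and 26.05 in Young PF4, 19.3, 23.5 and 27.9 in Old Veh, and 19.8, 21.1 and 24.6 in Old PF4 in CPM, with -0.07 (SE 0.068, edgeR adjusted p = 1). Cacna1g was at 17.1, 19.2 and 23.9 in Young Veh, 16.4, 20.4 and 36.8 in Young PF4, 11.6, 18.1 and 22.4 in Old Veh, and 15.03, 17.3 and 20.9 in Old PF4, with 0.09 (SE 0.083, edgeR adjusted p = 1), and without Young PF4 replicate 8 its log2 fold change was 0.02. The ranges of Young PF4 and Young Veh overlapped in each of these genes.

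**Figure D5:**
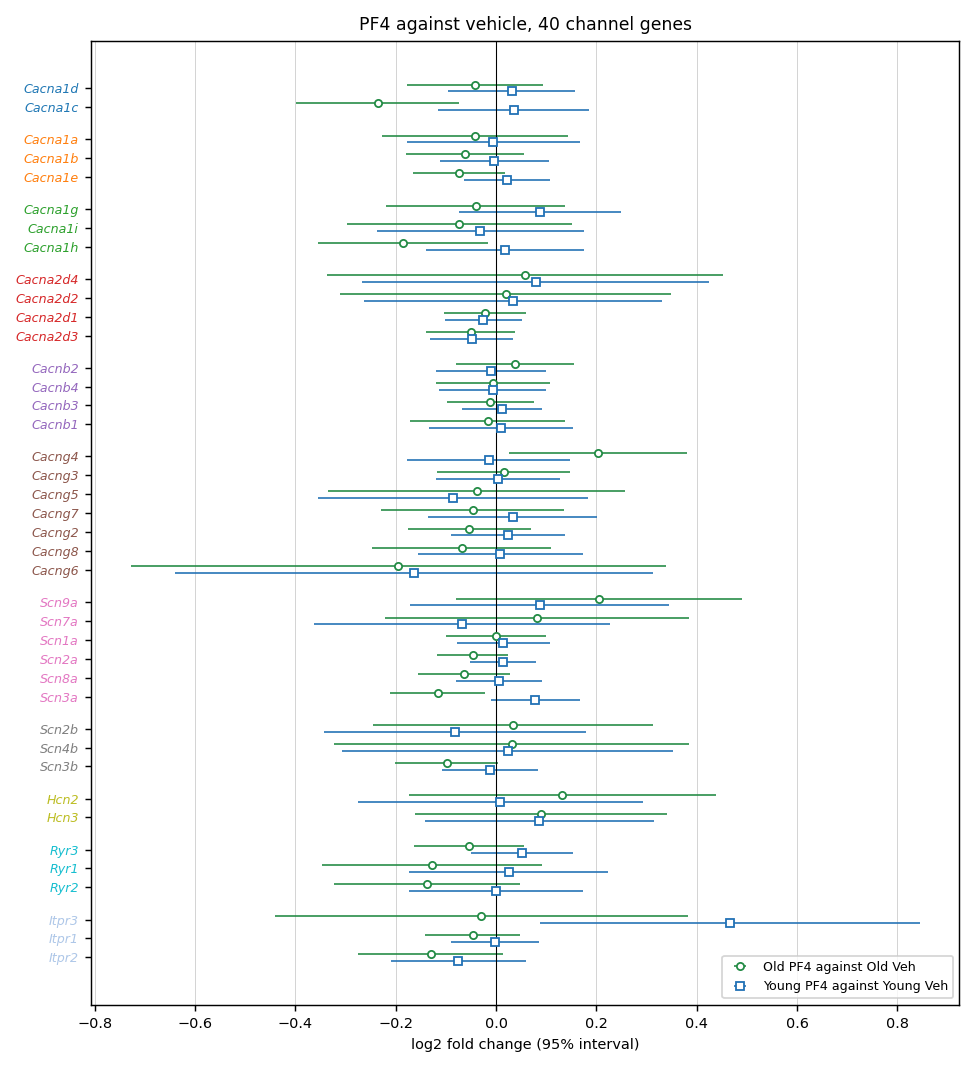
Log2 fold change of PF4 against vehicle with 95% intervals for 40 members, grouped by family, in old mice (circles) and young mice (squares). Open symbols did not pass the edgeR test, and all symbols are open; Itpr3 in young mice is the farthest to the right at 0.47.

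The difference of the PF4 effects between ages was also tested. edgeR called 0% of all genes and 0 of the 43 members, with 707 genes and 2 members at an unadjusted p below 0.05, and DESeq2 called 0 genes. Scn3a had the smallest unadjusted p, 0.00504, at a difference of -0.19 (SE 0.066, edgeR adjusted p = 1), since its PF4 value was 0.08 in young and -0.12 in old mice. This contrast is also the difference between the age effects of the 2 treatments, 0.16 in vehicle and -0.03 in PF4 mice for Scn3a. Cacna1c, with an unadjusted p of 0.0206, had -0.27 (SE 0.11, edgeR adjusted p = 1), Cacng4 0.22 (SE 0.12, edgeR adjusted p = 1), Itpr3 -0.50 (SE 0.29, edgeR adjusted p = 1) and Cacna1h -0.20 (SE 0.12, edgeR adjusted p = 1). Without Young Veh replicate 4 and Old PF4 replicate 8 Cacna1c had -0.19 and Cacna1h -0.11 (edgeR adjusted p = 0.848 and 0.929). For Cacna2d1 the interval of this difference was -0.11 to 0.12.

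Partner genes of these channels, among them anchors, pumps, exchangers, store-operated channels and the NALCN leak channel complex, were read from the same fit, and all 44 on the list were tested. In Old Veh against Young Veh 6 were called, all higher, and 0 were called lower. The background of genes called higher was 2.16% over all genes tested and 5.72% over those of at least 4594 bases. Transcript lengths of the partners were not examined. With the library number as a covariate edgeR called 0 of all 17778 genes, so none of these 6. The other alternatives are not given for partners. Unc80, a subunit of the NALCN sodium leak channel, had a log2 fold change of 0.24 (SE 0.046, edgeR adjusted p = 0.000709), and its partner Unc79 of 0.20 (SE 0.057, edgeR adjusted p = 0.037). Ank3, which anchors sodium channels at the axon initial segment, had 0.15 (SE 0.04, edgeR adjusted p = 0.0225), and the related ankyrin Ank2 had 0.17 (SE 0.034, edgeR adjusted p = 0.0019). A pair of calcium extruders completed the list, the plasma membrane pump Atp2b1 with 0.18 (SE 0.042, edgeR adjusted p = 0.00957) and the sodium-calcium exchanger Slc8a1 with 0.21 (SE 0.055, edgeR adjusted p = 0.0266). The median over the 44 genes was 0.00 with 23 higher, and none was called in any of the other 4 comparisons.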

How the data were processed

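Hippocampal mRNA-seq libraries (Smart-Seq2, Nextera XT, unstranded) of 47 mice were used. The deposited values are raw read counts per gene, made by the authors without normalization, for 35486 genes. Per the submitters' processing notes, reads were trimmed with Trim Galore 0.3.7 and aligned with STAR 2.5.3a to GRCm38, and the study used DESeq2. Samples of low coverage had been excluded by the authors. The counter and its annotation are not given in the sources used here. Old PF4 replicate 4 was not analysed here. Total counts of 2242879 to 21112908 set the precision of members with few reads.

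The 4 groups, taken from the titles, were fitted together in edgeR 4.0.16 (R 4.3.3) with TMM normalization and filterByExpr, which 17778 genes passed, and quasi-likelihood tests gave Benjamini-Hochberg adjusted p over all of them, called below 0.05. Standard errors were the size of the log2 fold change over the root of its F statistic, and 95% intervals come from them. DESeq2 1.42.0 was an alternative, beside other filters, RLE size factors, a replicate block, covariates (length index, choroid plexus score, library number), leaving out each mouse and leaving out libraries under 5000000 counts. Transcript lengths came from GENCODE M21 (found for 99.4% of genes tested) and promoters from RefSeq. The prior count for log2 CPM was 2. Members called in any comparison, the highest member per length of each family and the 5 members of smallest p in each treatment comparison are given in full, with partner genes named where called. Results of 3 members, which stay in the counts over 43 members, are not reported here. The members, lists and tests were chosen with earlier results of these data known. Replicates are numbered in the labels and were taken as separate mice, and p-values measure the spread between these samples.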

Additional observations from a re-analysis of the deposited data

Results flagged for a closer look

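The members named here were examined for a single mouse far from the rest in Old PF4, the 1 group of 10, where a gap to the nearest mouse above Dixon's 95% critical share of the group's range marks a value. Of 40 members 5 were marked, and all 5 marks fell on Old PF4 replicate 8, the library of second lowest length index (-0.23). Scn2b was 640 CPM there, above 251 to 343 CPM in the other 9 mice. The other 4 were low there. Cacna1a was 40.1 CPM against 61.6 to 75.02 CPM and Cacnb1 53.1 against 76.6 to 101 CPM. Cacna1i was 6.96 CPM against 12.6 to 17.6 CPM and Hcn3 5.44 against 10.0 to 14.5 CPM. Chance marks about 1 in 20 such groups, and these 5 marks share 1 library. None of these genes was called in a comparison that includes Old PF4, with or without it.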

How the results depend on the processing

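For Old Veh against Young Veh, where 5 members were called, beside 492 of all genes, the count was 2 without a count filter (400 of all genes), 2 without libraries under 5000000 counts (176), 0 with the choroid plexus score as a covariate (359) and 0 with the library number as a covariate (0). Library number does not overlap between ages, and with it the standard error of Cacna2d1 went from 0.039 to 0.083. Leaving out 1 mouse at a time gave 2 to 7, beside 356 to 593 of all genes. Without a replicate block 5 members were called and with the replicate block 3, Cacna2d1, Scn1a and Scn3a, beside 453 of all genes. Scn2a and Ryr3 were then at 0.11 and 0.18, with edgeR adjusted p of 0.0655 and 0.0667. The labels do not say whether the numbers pair the mice. Over all genes tested, deviations of same-numbered mice correlated between -0.425 and 0.554, and at most 2 numbers per comparison correlated best with their own. Such correlations cannot settle whether mice were paired, since a shared factor may move few genes. With both treatments averaged and without Young Veh replicate 4 and Old PF4 replicate 8, an alternative chosen after seeing the data, the count was 9, beside 1148 of all genes. Under the other 8 settings of this comparison the count stayed within 1.5 times the main one, from 4 to 7. For Old PF4 against Young PF4, where 0 were called, DESeq2 called 1 (Cacna2d1) beside 90 of all genes, the choroid plexus covariate 1 (Scn7a) beside 70, and leaving out 1 mouse 0 to 1 beside 36 to 91. With the replicate block no member was called in the other 4 comparisons, as in the fit without it. For both PF4 comparisons and their difference the count was 0 under every alternative run. Direction was not followed for all members. In the age comparisons it was followed for members at an unadjusted p below 0.05 and those called in vehicle mice. In the treatment comparisons it was followed for the 5 members of smallest p. Among these it was reversed only under the library number covariate, with age. The reversals were Cacng5 (0.11) in vehicle mice and Cacna1h (0.016) and Scn3a (0.11) in PF4 mice, and the cause was not tested. The interaction could not be fitted with only the groups compared, and the setting was not run. Depth limits members such as Cacng6 and Cacna2d4, whose intervals exceed the called differences.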
